A study of Drosophila melanogaster with 35 samples.

Results

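Cuticle protein genes were followed across lamin DamID and transcript arrays of Kc167, a line grown from Drosophila melanogaster embryos. The members were all array rows that name 1 gene whose symbol begins with Cpr and a digit, Twdl, Lcp, Pcp, Ccp8, Acp65 or Edg. This gave 56 genes on 57 rows, of 7258 genes with a symbol on the arrays: 36 Cpr genes, 15 Twdl genes and 5 others (Acp65Aa, Ccp84Aa, Ccp84Ab, Ccp84Ae and Lcp65Ac). The rule matched no Pcp or Edg gene, and 3 rows that name several genes were left out. Rows of a gene were averaged, and rows without a single gene name were kept as they were, which gave 8421 genes and clones in all.

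Insect cuticle is a layered matrix of chitin and protein that epidermal and tracheal cells secrete at their apical surface, mostly in bursts around each moult. Cpr proteins carry the Rebers and Riddiford chitin-binding domain, Lcp and Acp genes are named for larval and adult cuticle and Ccp84A genes for a cluster of cuticle protein genes, and Tweedle (Twdl) proteins are a separate insect family with their own conserved domain. Lamin forms the meshwork under the inner nuclear membrane, and genes that a cell type does not use are often found there.

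In DamID, a protein fused to the bacterial adenine methyltransferase Dam leaves methylation on the DNA it comes near, and the methylated DNA is set against that of cells with Dam alone. All cells were Kc167, and the Dam plasmids were transfected into them. Of the 35 arrays in 13 groups, 25 arrays in 9 groups were used. Dam-Lam delta CaaX, a lamin without its last 4 amino acids and so without the signal that takes it to the nuclear membrane, was set against Dam on 4 arrays (2962, 2966, 2967 and 2968), and Dam-Lam against Dam on 4 arrays (2907, 2921, 2945 and 2955), all in untreated cells. In the experiment with trichostatin A (TSA), a histone deacetylase inhibitor given at 100 nM for 24 h, 5 pairs of arrays compared Dam-Lam delta CaaX with and without TSA, Dam-Lam with and without TSA, Dam with and without TSA, and each fusion against Dam in TSA. Messenger RNA of cells grown with ecdysone, the moulting hormone, was set against that of untreated cells on 5 arrays, and mRNA of untreated cells against genomic DNA on 2 arrays. The hormone dose of these mRNA arrays is not given in the sources used here. The 10 ecdysone DamID arrays were not used, because arrays within 2 of their groups correlated at down to -0.645 and -0.555 over all genes and clones, so their direction is not settled.

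Every value is a log2 ratio of the 2 channels of an array, centred on the median of that array. A value above 0 at a gene means more methylation with the fusion than with Dam, relative to the middle of the array. Each array held 7542 to 8485 rows with a value. The direction of the ratios is not stated and was taken as channel 1 over channel 2 of the labels. On the arrays of mRNA over genomic DNA, 25 of 27 ribosomal protein genes were above 0, with a median of 5.84. That check does not bear on the DamID arrays, where each higher or lower rests on the assumed direction. A gene was called higher or lower where the Benjamini-Hochberg adjusted p of limma, over all genes and clones of a fit, was under 0.05. Separate cultures for the arrays within a group are not stated in the labels, so p-values measure only the spread between arrays, which may be technical.

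Transcripts of cuticle protein genes were scarce in untreated Kc167 cells. Their median mRNA over genomic DNA ratio was -1.49 over the 55 members measured, at the 19.7th percentile of 8074 genes and clones. Of the 55, 50 were below 0 on both arrays, 3 were above 0 on both, and 31 lay in the lowest quartile of all genes and clones while 0 lay in the highest. The 3 members above 0 were Cpr47Ee, with 1.52 and 0.53 on arrays 3458 and 3459, Cpr62Bc, with 0.77 and 1.13, and TwdlF, with 1.07 and 0.78. The lowest were TwdlN, with -2.59 and -2.91, and Acp65Aa, an adult cuticle protein, with -4.30 and -1.40. No test was made of these levels, and fewer cells that transcribe a gene cannot be told apart from less RNA per cell.

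**Figure D1:**
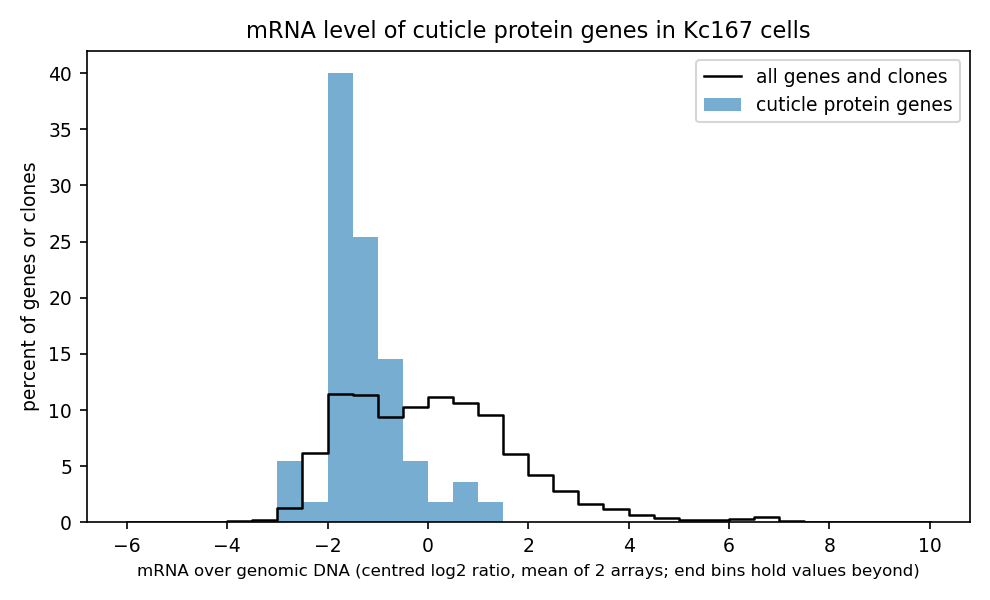
Share of genes (vertical axis, percent) by mRNA over genomic DNA (horizontal axis, centred log2 ratio, mean of 2 arrays). Filled bars are the 55 cuticle protein genes, which centre on -1.49, and the line is all 8074 genes and clones.

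Markers of other cell types were read on the same arrays. Of 16 hemocyte markers measured, 11 were above 0 and their summed level was 6.04 and 6.46 on the 2 arrays. The highest was Hml, a hemocyte clotting protein, at 4.24 and 4.75, followed by the extracellular matrix genes LanB1, LanA and Glt. The phagocytosis receptor genes were below 0: NimC1 averaged -2.25, NimC4 -1.33, eater -0.85 and crq -0.16. Of 9 markers of epidermis and tracheal epithelium, 3 were above 0 (grh, crb and Gasp) and the summed level was 2.75 and 2.74. The chitin synthase gene kkv stood at -1.56 and -3.07, and ple, the tyrosine hydroxylase of cuticle tanning, at -2.41 and -2.23. All 3 neuron markers measured were below 0, as were 5 of 6 fat body markers, while 2 of 5 muscle markers were above 0. Their summed levels were 0.06 and -0.70 for neuron, 2.83 and 0.81 for fat body, and 3.92 and 3.79 for muscle. A sum grows with the number of markers, so sums of lists of unlike length are not comparable. Median levels were 0.65 for hemocyte, -0.94 for epidermis and tracheal epithelium, -0.14 for muscle, -1.90 for neuron and -1.71 for fat body.

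In untreated cells Dam-Lam delta CaaX ratios were low at cuticle protein genes. Of 55 members tested, 31 (56.4%) were lower than Dam and 2 were higher, where 16.4% of all 8056 genes and clones were called lower and 16.1% higher. The median of the members was -0.43, and that of all genes and clones was 0.00. On each of the 4 arrays the members' median was below 0, between -0.66 on array 2962 and -0.37 on array 2967. Twdl genes made up 12 of the lower calls, out of 15 tested, with a median of -0.73, and Cpr genes 16 of 35, with a median of -0.39. Of the 5 other genes, Ccp84Ae, Lcp65Ac and Ccp84Ab were lower.

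The lowest member was Cpr47Ee, with -1.39, -1.09, -0.55 and -1.90 on arrays 2962, 2966, 2967 and 2968 (fitted log2 -1.24 ± 0.20 SE, limma adjusted p = 0.003541). Its neighbour Cpr47Eb had -0.86, -1.31, -1.31 and -1.01 (-1.12 ± 0.13, adjusted p = 0.001354). TwdlD, a gene whose mutation is known to change larval body shape, had -1.30, -1.03, -0.88 and -1.29 (-1.12 ± 0.13, adjusted p = 0.001232). All 12 of these values lie below -0.5. TwdlN (-1.06), TwdlB (-0.997), TwdlH (-0.96), Cpr47Eg (-0.92) and TwdlM (-0.89) followed, each with 4 arrays below -0.6. These genes were named for their low ratios on the same arrays, so low values on each array add no support. The 2 higher members were Cpr11B, with 0.50, 0.73, 0.57 and 0.60 (0.60 ± 0.12, adjusted p = 0.007472), and Cpr67Fa2, with 0.90, 0.71, 0.04 and 0.37 (0.50 ± 0.13, adjusted p = 0.01664). Cpr67Fa2 and its neighbour Cpr67Fa1, at -0.19 and not called, are close relatives, and cDNA probes may not separate them; the same holds for Ccp84Aa and Ccp84Ab. Without array 2967 there were 20 lower calls among the members and 1 higher call, without array 2966 there were 6 higher calls, and without array 2968 there were 0. Of all genes and clones, 631 were called lower without array 2967. Without arrays 2966 and 2968, 1678 and 476 were called higher.

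Dam-Lam ratios of the same genes were mostly above 0 in untreated cells. Of 55 members tested, 19 (34.5%) were higher than Dam and 0 were lower, where 20.3% of all 8062 genes and clones were called higher and 14.9% lower. The members' median was 0.35, against -0.02 for all genes and clones, and on the 4 arrays it lay between 0.22 on array 2907 and 0.54 on array 2945. Of 14 Twdl genes 7 were higher (median 0.47), of 36 Cpr genes 11 (median 0.35), and of the 5 others only Lcp65Ac, at 0.64 ± 0.17.

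TwdlH was the highest, with 1.46, 1.40, 3.33 and 0.90 on arrays 2907, 2921, 2945 and 2955 (1.77 ± 0.36, adjusted p = 0.01266). TwdlL had 1.12, 1.08, 2.03 and 0.86 (1.27 ± 0.21, adjusted p = 0.006759), and TwdlB had 0.94, 1.05, 1.67 and 1.29 (1.24 ± 0.14, adjusted p = 0.003078). Array 2945 held the highest value of all 3 genes. Among Cpr genes, Cpr12A had 1.55, 1.33, 1.16 and 0.48 (1.13 ± 0.16, adjusted p = 0.005057), and Cpr97Eb had 1.49, 1.01, 0.95 and 0.88 (1.08 ± 0.15, adjusted p = 0.004379). Cpr100A (1.01), Cpr11B (0.94), Cpr73D (0.89) and Cpr49Ac (0.87) completed the 8 called Cpr and Twdl genes with the largest ratios after TwdlH. The lowest members were Cpr47Ee, at -0.54 ± 0.18 with an adjusted p of 0.06584, and Cpr64Ad, at -0.32 ± 0.27; neither was called. The count of calls depends on which arrays are in the fit. Without array 2907 there was 1 member called higher and without array 2921 there were 0, when 219 and 7 genes and clones in all were called higher. The members' medians on these 2 arrays were 0.22 and 0.29, against 0.54 and 0.30 on arrays 2945 and 2955. Why the calls were lost was not tested. Without array 2945 or without array 2955, 3 members were called lower. In the fit without array 2945, 1772 genes and clones in all were called lower.

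**Figure D2:**
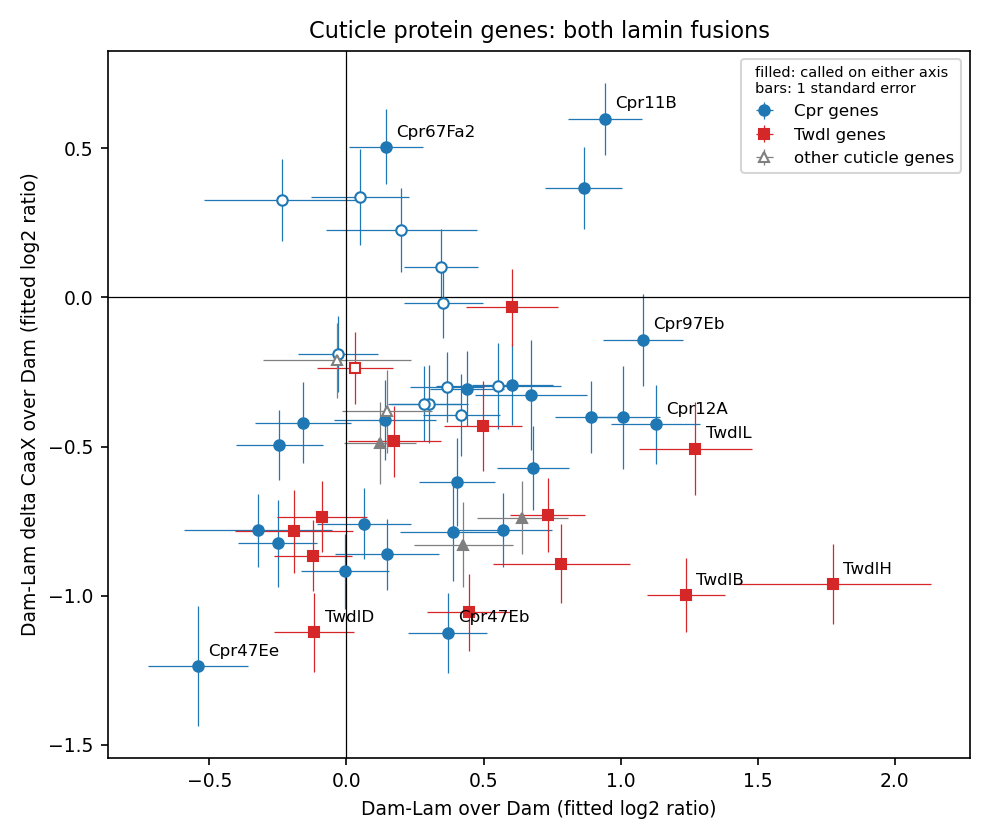
Fitted log2 ratio of each cuticle protein gene with Dam-Lam delta CaaX over Dam (vertical) and with Dam-Lam over Dam (horizontal), with bars of 1 standard error. Most points lie right of 0 and below 0, and Cpr11B is the only gene called higher on both axes.

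**Figure D3:**
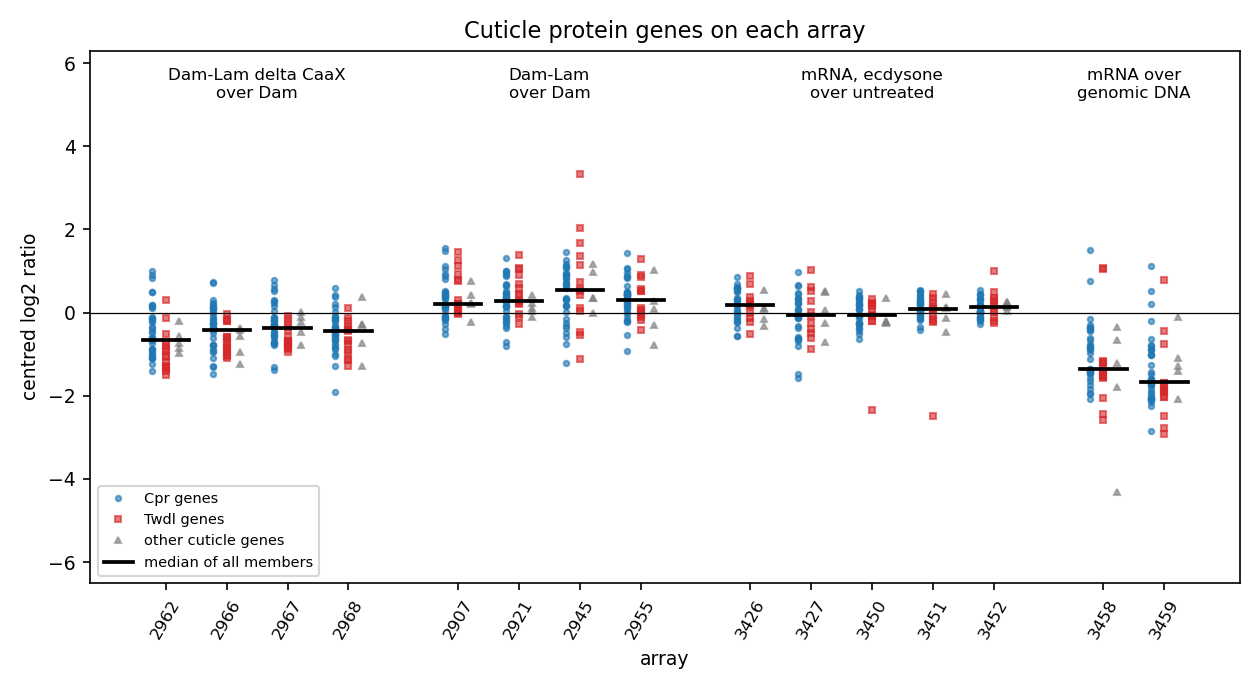
Centred log2 ratio (vertical) of every cuticle protein gene on each array (horizontal), by group. The black bars are medians of the members, which lie between -0.66 and -0.37 for Dam-Lam delta CaaX, between 0.22 and 0.54 for Dam-Lam, between -0.05 and 0.18 for the ecdysone mRNA response, and at -1.35 and -1.66 on the arrays of mRNA over genomic DNA.

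The ratios of the 2 fusions were then compared gene by gene on the 8 arrays. The difference is coded as Lam minus Lam delta CaaX, so a positive value means a lower ratio with the truncated protein. It was called positive at 34 of 54 members (63%) and negative at 0, where 21.1% of all 7711 genes and clones were called positive and 14.1% negative. The median difference of the members was 0.74, and of all genes and clones -0.06. It was positive at 11 of 14 Twdl genes and 20 of 35 Cpr genes. TwdlH, with values of -1.19 to -0.69 for Dam-Lam delta CaaX and of 0.90 to 3.33 for Dam-Lam, had the largest (2.74 ± 0.42, adjusted p = 0.0009784). TwdlB followed, with -1.40 to -0.69 for Dam-Lam delta CaaX and 0.94 to 1.67 for Dam-Lam (2.24 ± 0.18, adjusted p = 9.52e-05). Cpr12A (1.55 ± 0.22) and Cpr47Eb (1.49 ± 0.19) led the Cpr genes. Of the 54 members tested in both fits, 10 were lower with Dam-Lam delta CaaX and higher with Dam-Lam, 20 were only called lower with Dam-Lam delta CaaX, 8 were only called higher with Dam-Lam, and 14 were called in neither. Cpr11B was called higher with both and Cpr67Fa2 only with Dam-Lam delta CaaX. Joint calls were not counted over all genes and clones, so nothing particular to the members is read from these counts. The ratios of the 2 fusions had the same sign at 18 of 54 members and at 3738 of 7707 genes and clones. Without array 2955, 1 member was called negative in the difference, when 1026 genes and clones in all were.

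These shares have to be read beside the mRNA level. Among all genes and clones in the lowest quartile of mRNA level, 28.4% were lower with Dam-Lam delta CaaX and 44.7% were higher with Dam-Lam. The members in that quartile were lower with Dam-Lam delta CaaX at 18 of 30 and higher with Dam-Lam at 12 of 31. In the second quartile, 10 of 20 members were lower with Dam-Lam delta CaaX, against 16.8% of genes and clones, and 6 of 20 were higher with Dam-Lam, against 20.1%. The difference between the fusions was positive at 23 of 30 members of the lowest quartile, against 49.4% of genes and clones there, and at 10 of 20 members of the second quartile, against 20.9%. The differences between these shares were not tested. Across members, mRNA level and the Dam-Lam ratio had a Pearson r of -0.24 (n = 55), and across all genes and clones -0.37 (n = 8062); genes of an array are not independent, and both are descriptions.

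The array holds cDNA clones of several libraries, told apart by the prefix of the clone name, and the library moved with the Dam-Lam delta CaaX ratio. Of all genes and clones spotted as RE clones, 28.5% were lower with Dam-Lam delta CaaX, and of the others 13.5%. The members spotted as RE clones were lower at 20 of 27 (median -0.76) and the other members at 11 of 28 (median -0.32). With Dam-Lam the RE members were higher at 9 of 28 and the other members at 10 of 27, where 21.9% of RE clones and 19.9% of other clones were called higher. Within the lowest quartile of mRNA level, the RE members were lower with Dam-Lam delta CaaX at 14 of 20, against 44.8% of RE clones, and the other members at 4 of 10, against 22% of other clones. The part of the library in the result was not tested further.

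Many members stand next to each other on the chromosomes. By gene order in the Release 6 annotation, 38 of the 56 lie in 15 runs, in which at most 5 other protein-coding genes separate neighbours, and 18 stand alone. With Dam-Lam delta CaaX, members in runs were lower at 21 of 38 and those that stand alone at 10 of 17, where 16.4% of all genes and clones were called lower. With Dam-Lam, members in runs were higher at 14 of 38 and those that stand alone at 5 of 17, where 20.3% were called higher. Runs and lone genes were not tested against each other.

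The longest run holds 7 Twdl genes on chromosome arm 3R, TwdlM, TwdlP, TwdlB, TwdlL, TwdlN, TwdlH and TwdlD, with 5 other protein-coding genes among them. All 7 were lower with Dam-Lam delta CaaX, from -1.12 (TwdlD) to -0.51 (TwdlL), with a median of -0.96. With Dam-Lam 5 of the 7 were higher, the exceptions being TwdlN (0.45 ± 0.15, adjusted p = 0.06021) and TwdlD (-0.12 ± 0.15). TwdlP had -0.92, -0.59, -0.74 and -0.66 over the Dam-Lam delta CaaX arrays, against 0.75, 0.92, 0.74 and 0.52 over the Dam-Lam arrays, with no overlap. Of the 6 flanking genes, 3 were lower and 1 higher with Dam-Lam delta CaaX, and 4 were higher with Dam-Lam. Tb, another Tweedle gene, whose symbol the rule does not take, and amon, a proprotein convertase, lie beyond TwdlD and were called in both directions too: Tb at -0.50 with Dam-Lam delta CaaX and 0.64 with Dam-Lam, and amon at -0.41 with Dam-Lam delta CaaX and 0.60 with Dam-Lam. On the other side, CG5455 was higher with both, at 0.73 with Dam-Lam delta CaaX and 0.90 with Dam-Lam, and scrib, a cell polarity gene, was not called with Dam-Lam delta CaaX (0.21) and was higher with Dam-Lam (0.55). Pdf, a neuropeptide gene on that side, was lower with Dam-Lam delta CaaX (-0.57) and not called with Dam-Lam (0.15), and CG6425, beyond amon, was called with neither (-0.32 with Dam-Lam delta CaaX and -0.20 with Dam-Lam).

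**Figure D4:**
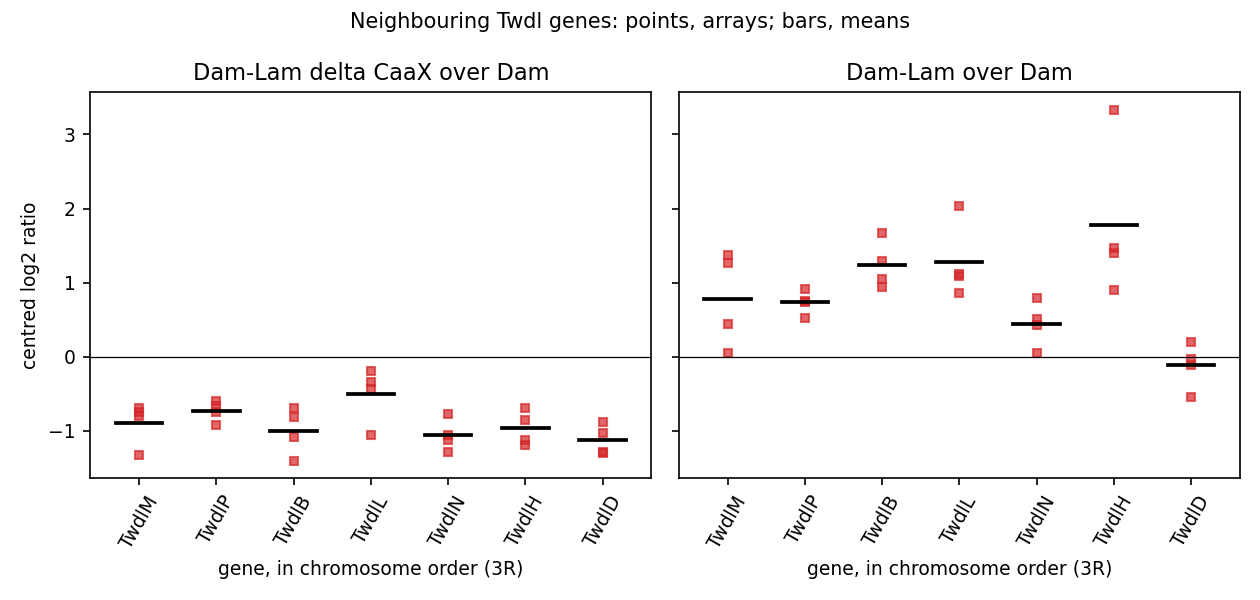
Centred log2 ratio (vertical) of the 7 neighbouring Twdl genes in chromosome order (horizontal), with Dam-Lam delta CaaX over Dam on the left and Dam-Lam over Dam on the right. Points are arrays and bars are means; all Dam-Lam delta CaaX points lie below 0, and TwdlH reaches 3.33 on 1 Dam-Lam array.

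Other runs differed from it. The 3 Cpr47E genes were all lower with Dam-Lam delta CaaX, from -1.24 to -0.92, while with Dam-Lam they lay between -0.54 and 0.37 and 0 of 3 were called. The 6 genes flanking them had a median of -0.44 with Dam-Lam delta CaaX, where 4 of 6 were lower. TwdlF and TwdlG were lower with Dam-Lam delta CaaX, at -0.78 and -0.73, inside flanks with a median of 0.39 where 3 of 6 were higher. Cpr49Ac and Cpr49Ae had 0.37 and 0.10 with Dam-Lam delta CaaX, not called, and 0.87 and 0.34 with Dam-Lam, of which the first was called.

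The TSA experiment holds its own arrays of both fusions, from which ratios without TSA were rebuilt from the 10 arrays that join its 6 conditions. For Dam-Lam, 16 of 47 members were higher and 0 lower without TSA (median 0.32), where 20.4% of 7089 genes and clones were called higher and 13.7% lower. In the lowest quartile of mRNA level 11 of 25 members were higher, against 47.2% of genes and clones there, with medians of 0.32 and 0.48. In the second quartile 5 of 19 members were higher, against 22.6%. Of the 15 members tested here that were called higher in the first arrays, 12 were called higher again. Repeated calls were not counted over all genes and clones, so nothing particular to the members is read from this. Both sets of Dam-Lam ratios had the same sign at 38 of 47 members and at 5696 of 6856 genes and clones. The comparison for Dam-Lam delta CaaX was chosen after seeing the data. In it 10 of 47 members were lower and 0 higher (median -0.32), where 5.18% of genes and clones were called lower and 7.02% higher. In the lowest quartile of mRNA level 6 of 25 members were lower, against 10.9% of genes and clones there, and in the second quartile 4 of 19, against 5.5%. The 10 lower members include Cpr64Ad (-1.20 ± 0.19), Cpr76Bd (-1.07 ± 0.21) and TwdlG (-1.002 ± 0.18). Of the 46 members tested in both sets of arrays, 9 were lower in both, 16 only in the first arrays and 1 only here. These joint calls were not counted over all genes and clones either. Both sets of Dam-Lam delta CaaX ratios had the same sign at 41 of 46 members and at 5014 of 6847 genes and clones. Over members, both sets of Dam-Lam ratios had a Pearson r of 0.835 (n = 47), and both sets of Dam-Lam delta CaaX ratios 0.63 (n = 46); over all genes and clones it was 0.835 and 0.637. There were 10 higher Dam-Lam calls without array 3687 or 3689, and 1 lower call without array 3691. Without array 3687, 1013 genes and clones in all were called higher. With the arrays scaled to the same spread there were 6 higher calls, where 11.5% of genes and clones were called higher. Of the lower Dam-Lam delta CaaX calls, 3, 0 and 1 were made without arrays 3692, 3693 and 3695. Without array 3693, 19 genes and clones in all were called lower. With the same spread 6 lower calls were made, where 1.64% of genes and clones were called lower. There were 1 and 3 higher calls without arrays 3690 and 3691.

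The ratios of both fusions over Dam were also measured in TSA itself. Dam-Lam delta CaaX over Dam in TSA had a median of -0.07, with 4 of 47 members lower and 2 higher, where 7.19% of genes and clones were called lower and 5.29% higher. Dam-Lam over Dam in TSA had a median of 0.16, with 16 of 47 higher and 1 lower, where 19.5% were called higher and 14.6% lower. In the lowest quartile of mRNA level 11 of 25 members were higher with Dam-Lam in TSA, against 46.8% of genes and clones there. In the second quartile 5 of 19 members were, against 22.4%. TwdlB had -0.04 and 0.07 on arrays 3694 and 3695 of Dam-Lam delta CaaX over Dam in TSA, against 0.52 and 0.68 on arrays 3688 and 3689 of Dam-Lam over Dam in TSA. Cpr62Bb (0.60 ± 0.11) and Cpr11A (0.59 ± 0.11) were the next highest with Dam-Lam, and Cpr97Ea (-0.37 ± 0.10) was the lower one. Ccp84Aa was the lowest with Dam-Lam delta CaaX (-1.16 ± 0.30), with -0.13 on array 3694 and -2.19 on array 3695, so its value rests on 1 array. Without array 3688 there was 1 member higher with Dam-Lam and without array 3689 there were 0, when 361 genes and clones in all were called higher. Without array 3694 there was 1 member lower with Dam-Lam delta CaaX. Without array 3695 there were 0, when 76 genes and clones in all were called lower. With the arrays scaled to the same spread there were 7 lower and 4 higher members with Dam-Lam delta CaaX, where 14.6% of genes and clones were called lower and 13.5% higher, so its count of calls in TSA depends on the scaling. Its higher calls were 4 without array 3690 or 3691, 0 without array 3694 or 3695 and 1 without any other array.

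The change with TSA was taken beyond that of Dam alone, which fell at 6 of 47 members and rose at 2, where 16% of genes and clones were called lower and 15.6% higher. Among the 6 were TwdlB (-0.42 ± 0.09) and Cpr76Bd (-0.45 ± 0.12). Between the 2 arrays of Dam the r was 0.103 over the members and 0.516 over all genes and clones. Without array 3690 there were 3 lower calls, when 546 genes and clones in all were called lower, and without any other array there was 1 higher call.

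The Dam-Lam delta CaaX ratio rose with TSA at 16 of 47 members and fell at 3, where 16.2% of genes and clones were called higher and 20.4% lower. The median was 0.30, against -0.01 for all genes and clones. It rose at 7 of 11 Twdl genes (median 0.48) and at 7 of 31 Cpr genes (median 0.22). Cpr56F had 1.14 and 1.13 on the arrays with over without TSA of Dam-Lam delta CaaX and 0.05 and -0.04 on those of Dam, a change of 1.13 ± 0.14 (adjusted p = 0.0002598). Cpr64Ad had 0.60 and 0.80, with -0.53 and -0.15 for Dam (1.04 ± 0.15, adjusted p = 0.0005943). TwdlG had 0.73 and 0.95, with -0.12 and 0.05 for Dam (0.87 ± 0.14, adjusted p = 0.001091). In all 3 genes the 2 fusion arrays lie above both Dam arrays. The genes were named for the size of this change on the same arrays, so that adds no support. The count of rises went with the clone library: 12 of 21 members spotted as RE clones rose, against 20.6% of RE clones, and 4 of 26 other members rose, against 15.4% of other clones. In the lowest quartile of mRNA level 11 of 25 members rose, against 30.8% of genes and clones there; the part of library and mRNA level in the result was not tested further. The 3 that fell were Cpr97Ea (-0.74 ± 0.14), Cpr51A (-0.71 ± 0.18) and Cpr11B (-0.58 ± 0.16); Cpr11B is the gene with the highest Dam-Lam delta CaaX ratio among the members in untreated cells. Without array 3692 there were 10 members that rose and 1 that fell, without array 3693 there were 6 that rose, and without array 3691 there were 5 that fell. Of all genes and clones, 399 rose without array 3693 and 1436 fell without array 3691. With the arrays scaled to the same spread there were 8 members that rose and 1 that fell. At that setting 3.87% of genes and clones were called higher and 5.95% lower.

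The Dam-Lam ratio fell with TSA at 10 of 47 members and rose at 3, where 17.6% of genes and clones were called lower and 12.4% higher. The median was -0.28, against -0.02 for all genes and clones. In the lowest quartile of mRNA level 8 of 25 members fell, against 30.3% of genes and clones there. Cpr12A fell most, with -1.41 and -1.28 on the arrays with over without TSA of Dam-Lam and 0.20 and -0.55 on those of Dam (-1.17 ± 0.19, adjusted p = 0.001517). Cpr47Eb (-0.70 ± 0.17), TwdlB (-0.68 ± 0.13), Ccp84Ae (-0.67 ± 0.15), TwdlM (-0.62 ± 0.14), TwdlN (-0.61 ± 0.14) and TwdlL (-0.55 ± 0.16) fell too. So 4 of the 5 genes tested in the long Twdl run fell. The fall was not particular to the Twdl genes there: of the 6 flanking genes 5 fell and 1 rose. The flanking genes had a median of -0.59 and the 5 Twdl genes one of -0.61. The members that rose were Cpr56F (0.62 ± 0.14), Cpr78Cb (0.61 ± 0.15) and Cpr76Bd (0.49 ± 0.17). All 3 rose with Dam-Lam delta CaaX as well, but both changes have the Dam arrays in common. Of the 15 members tested here that were higher with Dam-Lam in the first arrays, 6 fell with TSA and 9 were not called. The same count was not made over all genes and clones, so nothing particular to the members is read from it. With the arrays scaled to the same spread, 0 members were called in either direction, as was the case for all genes and clones. Without array 3686, 3687 or 3690 there were 5 that fell in each case, and the 3 that rose became 0 without array 3686 and 1 without array 3690. Of all genes and clones, 497 fell and 219 rose without array 3686.

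The difference of both changes, a comparison also chosen after seeing the data, was coded as Lam minus Lam delta CaaX, in which Dam cancels. It was negative at 27 of 47 members (57.4%) and positive at 1, where 19.1% of genes and clones were called negative and 18.9% positive. The median was -0.52, against 0.09 for all genes and clones. It was negative at 9 of 11 Twdl genes, led by TwdlB (-1.17 ± 0.13, adjusted p = 0.0001582) and TwdlM (-1.16 ± 0.14, adjusted p = 0.0001865), and at 14 of 31 Cpr genes, with Cpr62Bb (-0.82 ± 0.15) and Cpr12A (-0.80 ± 0.19) first. On the arrays with over without TSA, TwdlM had 0.32 and 0.52 with Dam-Lam delta CaaX, against -0.70 and -0.78 with Dam-Lam, and TwdlB had 0.01 and 0.13 with Dam-Lam delta CaaX, against -1.05 and -1.15 with Dam-Lam. Cpr97Ea was the 1 positive gene (0.49 ± 0.14). In the lowest quartile of mRNA level, 15 of 25 members and 50.7% of all genes and clones were called negative, and in the second quartile 10 of 19 members and 21.1%. With the arrays scaled to the same spread, 2 members were negative and 0 positive, where 1.47% of genes and clones were called negative and 0.04% positive. Without array 3692, 3693, 3686 or 3687 there were 16, 10, 16 and 17 negative calls, and the 1 positive call was lost in each case. Without array 3693, 687 genes and clones in all were called negative.

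**Figure D5:**
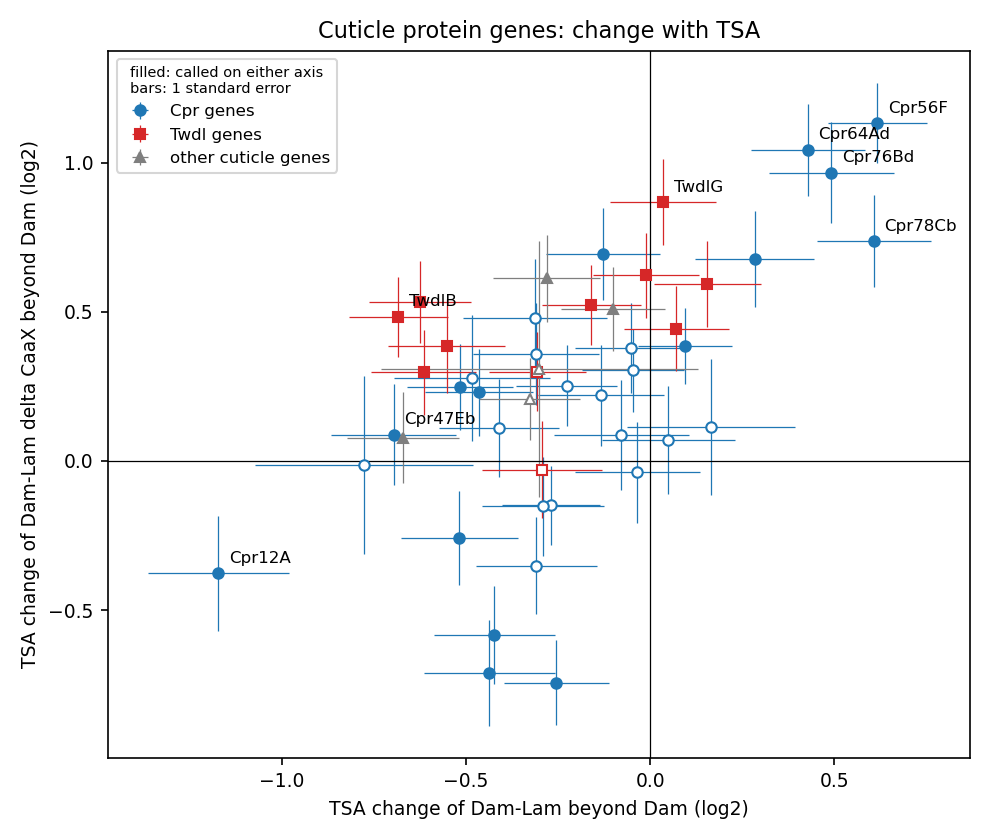
Change with TSA of the Dam-Lam delta CaaX ratio (vertical) and of the Dam-Lam ratio (horizontal) at each cuticle protein gene, both beyond the change of Dam, in log2 with bars of 1 standard error. Both axes use the same Dam arrays; Cpr56F lies highest at 1.13 and Cpr12A furthest left at -1.17.

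Ecdysone starts moults and with them many cuticle genes in the animal. On the ecdysone mRNA arrays 0 of 47 members were called by limma, where 2.17% of 7089 genes and clones were called higher and 1.61% lower. Only Twdlbeta had an unadjusted p under 0.05. The median response was 0.08, against 0.01 for all genes and clones, and the members' median on the 5 arrays ran from -0.05 to 0.18. The highest values, none called, were those of Cpr12A (0.30 ± 0.15), Cpr76Bd (0.30 ± 0.14) and Ccp84Ae (0.30 ± 0.15). The member with the lowest value was Twdlbeta (-0.66 ± 0.24, adjusted p = 0.2213), with -0.88, -2.34 and -2.48 on arrays 3427, 3450 and 3451, where the ecdysone sample was labelled with Cy3, and 0.17 and 0.99 on arrays 3426 and 3452, where it was labelled with Cy5. Its sign thus went with the dye. Without array 3427 it was called lower (-0.91 ± 0.15, adjusted p = 0.0002765). Among regulators of cuticle genes, the nuclear receptor gene Hr3 rose (2.43 ± 0.27, adjusted p = 0.001165) and EcR, the ecdysone receptor, had 0.47 ± 0.14 (adjusted p = 0.124); 1 of 7 regulators was called. Pairs of these arrays correlated at -0.13 to 0.757 over all genes and clones and at -0.613 to 0.81 over the members. With arrays that differ this much at the members, 0 calls do not show that no member responded.

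Genes that work with the cuticle proteins were called in both directions, at shares to be read beside the 16.4% lower and 16.1% higher with Dam-Lam delta CaaX, and the 20.3% higher and 14.9% lower with Dam-Lam, of all genes and clones. Nothing particular to these lists is read from the counts. Of 29 genes of chitin and cuticle assembly, 8 were lower and 6 higher with Dam-Lam delta CaaX (median -0.16), and 9 were higher and 2 lower with Dam-Lam (median 0.21). With Dam-Lam the higher ones included the chitinase-like growth factors Idgf4 (1.46 ± 0.20) and Idgf2 (1.22 ± 0.19) and the chitin deacetylase Cda4 (1.15 ± 0.14), and the lower ones were the chitinase Cht10 (-1.51 ± 0.13) and mmy, which makes the chitin precursor (-0.51 ± 0.14). Of the 14 tanning and pigmentation genes, 3 were lower and 3 higher with Dam-Lam delta CaaX, with yellow-e at -1.22 ± 0.12. Of 13 of them tested with Dam-Lam, 3 were higher and 1 lower, with yellow-h at 1.52 ± 0.16. Of 7 apical matrix proteins of the zona pellucida kind, 0 were called with Dam-Lam delta CaaX and 3 were higher with Dam-Lam, mey at 2.09 ± 0.15 among them. Of 7 regulators of cuticle genes, 2 were lower and 3 higher with Dam-Lam delta CaaX, and of 6 tested with Dam-Lam 1 was higher. With ecdysone 0 of 25 genes of chitin and cuticle assembly and 0 of 6 matrix proteins were called, and of 9 tanning genes yellow-f2 rose (0.80 ± 0.14, adjusted p = 0.01329).

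Of the 56 members, 9 had no test in the TSA and ecdysone fits: Cpr23B, Cpr47Ee, Cpr47Eg, Cpr65Eb, Cpr97Eb, TwdlE, TwdlH, TwdlP and Twdlalpha. Twdlalpha was measured on the Dam-Lam delta CaaX arrays alone (-0.59 ± 0.14), and Cpr51A had no test there.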

How the data were processed

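The deposited files give 1 log ratio of both channels per cDNA spot, which was read as log2. The submitters' processing notes name limma. Its version, the normalization, the log base and the direction of the ratios are not given in the labels or files used here. The RNA of the mRNA arrays was amplified with a T7 system, per the labels' protocols. Arrays were centred on their median, rows of a gene averaged, and each comparison was fitted in R 4.3.3 by limma 3.58.1 (lmFit, then eBayes), with a gene-wise dye term. Genes and clones with values on fewer than 75% of a fit's arrays were not tested; tests were two-sided, with Benjamini-Hochberg adjustment over all genes and clones. No spot intensities were used, so the number of arrays limits the precision (7542 to 8485 rows with a value each). Gene names come from the probe table of the platform and gene order from Release 6, matched for 56 members by gene number.

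The members and gene lists were chosen with earlier results of these data known. In each comparison the rule names up to 8 called members a direction by size, the 3 highest and 3 lowest, any member in an account by family or position, and up to 4 called genes of each other list. Alternatives were no centring, complete rows only, equal spread of arrays, no dye term and each array left out.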

Additional observations from a re-analysis of the deposited data

Results flagged for a closer look

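The ratios of both fusions differed at 34 of 54 cuticle protein genes by the limma test of the difference, all in the direction of a lower ratio with Dam-Lam delta CaaX than with Dam-Lam. Of all genes and clones, 21.1% differed in that direction and 14.1% in the other. Among those in the lowest quartile of mRNA level, 23 of 30 members and 49.4% of genes and clones differed in that direction.

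Among 93 sets of 4 or 5 arrays looked at for 34 named members, 1 had an array far from the others by Dixon's test: TwdlM with Dam-Lam delta CaaX, at -1.33 on array 2962, against -0.80 to -0.69 on the other arrays. Chance gives such a flag in about 1 of 20 sets.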

How the results depend on the processing

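Alternatives were computed for 96 results on single members that were called with all arrays. These are the called members with the largest values in each direction of a comparison, so smaller called results are not covered. Results that were not called with all arrays are not counted here either. Of the 1220 values under alternatives, 0 changed sign, 1026 kept their side of the threshold and 194 lost the call. Counts of members called moved as follows, and the causes were not tested. A fit with an array left out also has fewer arrays, and the part of that in the counts was not tested.

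The arrays were scaled to the same median absolute deviation, and the share of all genes and clones is given in brackets. There were 4 higher (13.5%) and 7 lower (14.6%) members for Dam-Lam delta CaaX over Dam with TSA. For the same ratio without TSA in the TSA experiment there were 6 lower (1.64%). There was 1 lower (17.3%) for Dam-Lam over Dam, and 6 higher (11.5%) for it without TSA in the TSA experiment. The change with TSA beyond Dam then had 8 higher (3.87%) and 1 lower (5.95%) for Dam-Lam delta CaaX. For Dam-Lam it had 0 higher (0%) and 0 lower (0%), and that of Dam had 1 higher (14.6%). The difference of both changes had 0 positive (0.04%) and 2 negative (1.47%). The median mRNA over genomic DNA ratio was -0.38 on this scale. Its arrays 3458 and 3459 had the widest spread of all (median absolute deviation 1.58 and 1.99), so the scaling shrank their values. The order of genes within each array is not changed by it. With no dye term there was 1 higher for Dam-Lam delta CaaX over Dam, 0 higher and 2 lower for it with TSA, 6 lower for it without TSA in the TSA experiment, 1 lower for Dam-Lam over Dam, and 1 higher and 2 lower for the TSA change of Dam. Without centring that change had 1 higher.

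Each array was then left out in turn. In brackets is the number of all genes and clones called in that direction in a fit with that count. Dam-Lam delta CaaX over Dam had 0 (476) to 6 (1678) higher and 20 (631) to 34 (1688) lower. With TSA it had 0 (117) to 4 (655) higher and 0 (76) to 4 (437) lower. Without TSA in the TSA experiment it had 0 (30) to 3 (823) higher and 0 (19) to 11 (565) lower. Dam-Lam over Dam had 0 (7) to 27 (2207) higher and 0 (28) to 3 (1772) lower. With TSA it had 0 (361) to 18 (1617) higher and 0 (84) to 1 (842) lower. Without TSA in the TSA experiment it had 10 (1013) to 17 (1539) higher and 0 (839) to 1 (1096) lower. The difference of the fusions had 27 (1335) to 36 (1607) positive and 0 (748) to 1 (1026) negative. The TSA change had 6 (399) to 17 (1017) higher and 1 (695) to 5 (1436) lower for Dam-Lam delta CaaX. For Dam-Lam it had 0 (219) to 4 (943) higher and 5 (497) to 12 (1331) lower. For Dam it had 1 (934) to 2 (356) higher and 3 (546) to 6 (1011) lower. The difference of both changes had 0 (277) to 1 (1464) positive and 10 (687) to 31 (1569) negative. Ecdysone had 0 (63) higher and 0 (29) to 1 (456) lower, the 1 being Twdlbeta without array 3427. The median mRNA ratio ran from -1.66 to -1.35. A fit without 1 of a pair of arrays rests on the spread of the other arrays.

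No paired analysis was possible because each number names a single array, and the labels do not say which arrays share a culture or a DNA preparation. The arrays of the TSA experiment were joined in 1 fit through the conditions that they share.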
